A study of Mus musculus with 2 samples.

Results

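Smooth muscle genes of the mouse testis were examined in 10 members: Acta2, Actg2, Tagln, Cnn1, Lmod1, Myh11, Mylk, Des, Smtn and Synpo2. They were taken from the deposited gene and transcript tables by unversioned Ensembl identifier, matched to symbols in GENCODE M21. All 10 were found among 43346 Ensembl genes, with 31 transcripts between them. The rule uses gene symbols and no measured value. The study holds 1 group of 2 libraries, both from whole testis of male C57BL/6J littermates 8 weeks old, with no treatment named. RNA above 200 nucleotides was depleted of ribosomal RNA and poly(A)-selected, and stranded pairs of 76 nucleotides were read. The labels call the libraries biological replicates 1 and 2 but give both the same donor identifier, so separate animals cannot be taken as settled.

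Peritubular myoid cells are flat contractile cells that ring each seminiferous tubule. Their contractions move fluid and immature sperm toward the rete testis, and they lay down part of the tubule's basement membrane. Like vascular smooth muscle, they contract when myosin light chain kinase phosphorylates myosin bound to actin filaments, and the filaments are anchored by intermediate filaments and dense bodies. Many of these genes are switched on by serum response factor and myocardin, which act at CArG boxes. The same genes are active in vessel walls and in the muscle coat of the epididymal duct, so a level in whole tissue has no assigned cell of origin. In whole tissue, fewer cells of a type and less RNA per cell cannot be told apart.

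Expected counts over Ensembl genes summed to 49023238 in replicate 1 and 51465728 in replicate 2. The members took 0.0868% of them in replicate 1 and 0.0582% in replicate 2. Markers of the tissue were present. In each library 10 of 10 germ cell, 12 of 12 Sertoli and 9 of 9 Leydig genes reached 1 TPM (a length-scaled share of all transcripts). Among all 43346 Ensembl genes, 15533 reached it in both. The libraries did not stand alike for other tissues. Summed TPM of 13 epididymis genes was 859.6 in replicate 1 and 3.86 in replicate 2, and that of 13 skeletal muscle genes was 35.6 and 13.5. These lists are set beside the members below.

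All 10 members were measured above 100 counts on average. Of the 10, 9 reached 1 TPM in each library, against 15533 of 43346 Ensembl genes. Synpo2 was the exception, at 2.35 in replicate 1 and 0.87 in replicate 2. The members covered a wide range of levels, from a mean TPM of 397.5 ± 19.8 (SD, n = 2) for Actg2 to 1.61 ± 1.05 (SD, n = 2) for Synpo2. Detected protein-coding genes had a median mean TPM of 12.9 over 13340 genes. Actg2 was above 97.1% of them and Acta2 above 90.7%, while Lmod1 was above only 8.63% and Synpo2 above 5.05%. In descending order of mean TPM the members were Actg2, Acta2, Tagln, Mylk, Myh11, Cnn1, Des, Smtn, Lmod1 and Synpo2. The libraries of neighbours did not overlap between Actg2 and Acta2, between Acta2 and Tagln, and between Smtn and Lmod1. All other neighbours overlapped, and Des and Smtn changed places between the libraries.

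**Figure D1:**
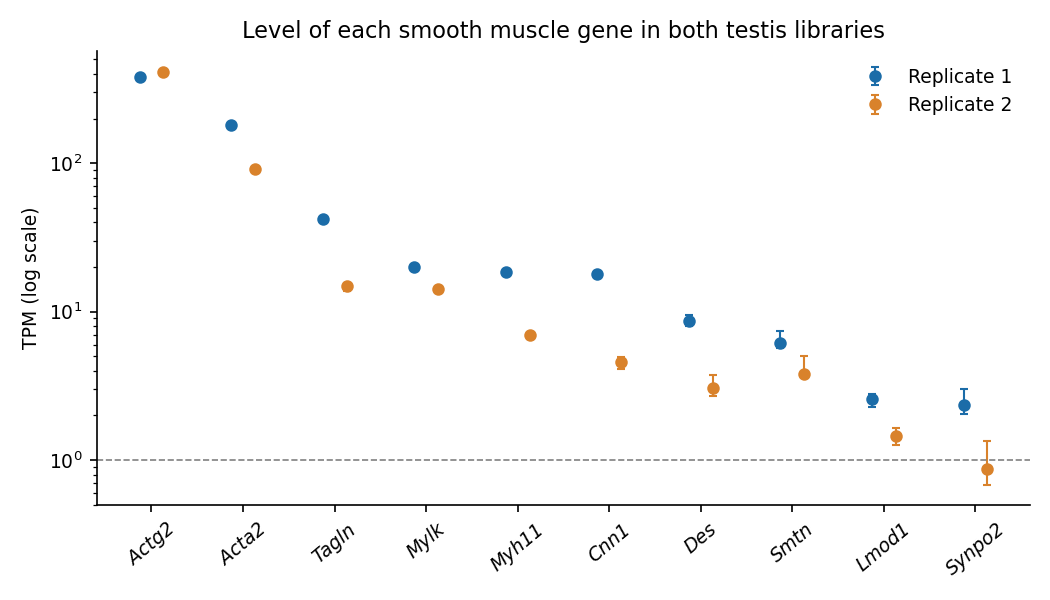
TPM on a log scale of the 10 smooth muscle genes in replicate 1 (blue) and replicate 2 (orange), in order of mean TPM, with the authors' deposited interval on TPM as bars and a dashed line at a TPM of 1. Replicate 2 is lower for every gene except Actg2, and only Synpo2 in replicate 2 lies under the dashed line.

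The libraries differed for most members. With counts scaled by the trimmed mean of M values (TMM), 9 of 10 members were lower in replicate 2, where 49.5% of 20268 genes with a mean of at least 10 counts were lower. Of the 10, 5 were over 2-fold lower, Cnn1, Synpo2, Des, Tagln and Myh11, against 4.08% of all tested genes. Among 14897 genes with a mean of at least 100 counts, as all members have, 1.38% were over 2-fold lower. None of the 10 was over 2-fold higher, against 2.39% of tested genes. The median log2 ratio of replicate 2 over replicate 1 was -1.21 for the members and 0.00311 for all tested genes. One library stood on each side, so no test was possible and no p-value is given. The intervals on ratios below are exact 95% binomial intervals for counting error only.

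**Figure D2:**
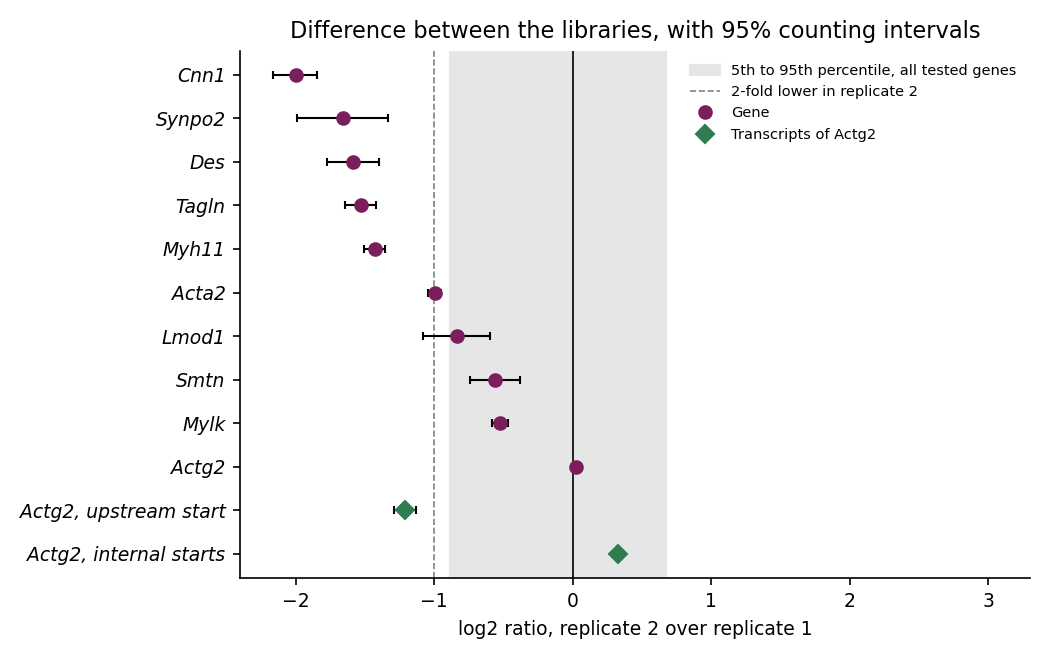
The log2 ratio of replicate 2 over replicate 1 for each gene (circles) and for Actg2 transcripts split by start (diamonds), with 95% counting intervals; the grey band spans the 5th to 95th percentile of 20268 tested genes and the dashed line marks 2-fold lower. Cnn1 lies farthest to the left at -2.0, Actg2 as a whole lies at 0.03, and its upstream-start transcript lies at -1.21.

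Of the actins, Acta2 encodes alpha smooth muscle actin, the main thin filament protein of myoid cells. The gene (ENSMUSG00000035783) lies on the minus strand of chromosome 19 of mm10, from 34241090 to 34255590. Acta2 was at 179.9 TPM in replicate 1 and 91.3 TPM in replicate 2, from 11469 and 6057 counts. Replicate 1 was the higher library, with a log2 ratio of -0.997 (-1.04 to -0.952). Acta2 thus fell just short of 2-fold and was not counted as past it, the nearest member past it being Myh11 at -1.43. Scaling by median-of-ratios size factors gave -1.001, just past 2-fold. The tables list 1 transcript of the gene.

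Upstream sequence was available from RefSeq, build GRCm38.p6, for 7 of the 10 members: Acta2, Cnn1, Des, Lmod1, Mylk, Smtn and Synpo2. Tagln, Myh11 and Actg2 had no entry. The 250 bases before each start were searched on both strands for a CArG box, here CC, then 6 bases of A or T, then GG. None of the 7 held a strict match, which 1.47% of 32851 promoters of that length hold. With 1 of the middle bases allowed to be C or G, Acta2 alone had matches, and it had 2. At least 1 such match occurs in 8.59% of all promoters and 2 or more in 0.670%. Each match is shown, 5′ to 3′, with 10 bases on either side in lower case and the match in capitals, because Acta2 was the only member with any.
Acta2, chr19:34255438-34255467 minus strand: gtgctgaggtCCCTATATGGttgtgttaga
Acta2, chr19:34255388-34255417 minus strand: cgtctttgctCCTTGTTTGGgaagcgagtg
The matches begin 84 and 34 bases before the RefSeq start. GENCODE M21 starts Acta2 farther upstream, with exon 1 from 34255290 to 34255590, so both matches lie in its annotated 5′ UTR and 217 of the 250 bases searched are exon there. For the other 6 members 0 to 37 of the 250 bases are exon in GENCODE M21. The element CATTCC, known as an MCAT motif, was found on either strand in 4 of the 7 (Acta2, Lmod1, Mylk and Smtn), against 12.6% of all promoters. In Acta2 it lies in the same annotated exon, from 146 to 141 bases before the start, in the opposite orientation. TATAAA was found on either strand in 1 of the 7, Synpo2, against 12.4% of all promoters. In Synpo2 it lies from 233 to 228 bases before the start, in the opposite orientation. A match in these letters describes the sequence only, and the lack of a match says nothing of the factor.

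Actg2 encodes gamma smooth muscle actin, best known from the gut and other visceral muscle. The gene (ENSMUSG00000059430) lies on the minus strand of chromosome 6, from 83512905 to 83536265. It was at 383.5 TPM in replicate 1 and 411.4 TPM in replicate 2, from 14388 and 15453 counts. Actg2 was the only member not lower in replicate 2, with a log2 ratio of 0.03 (-0.00558 to 0.0601), or 0.10 as a ratio of TPM. Actg2 thus had more TPM than the other 9 members together, which summed to 298.5 in replicate 1 and 141.1 in replicate 2.

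Transcripts of Actg2 behaved unlike each other. The tables list 5, of which 1, the upstream-start transcript, starts at 83536265 with a first exon from 83536180. In GENCODE M21 the other 4 start between 8275 and 9363 bases downstream of it, inside the gene. Actg2-202 starts at 83527990 and has a first exon of 33 bases, but its coding sequence is the same as that of the upstream-start transcript, 1128 bases from the base at 83527441. Actg2-204 and Actg2-205 share this coding start and end earlier in the annotation, and Actg2-203 has no annotated coding sequence. Actg2-204 as deposited is longer, at 860 bases, than in GENCODE M21. Its structure given here is therefore not that of the form measured.

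The upstream-start transcript was at 90.6 TPM in replicate 1 and 39.7 TPM in replicate 2. The authors' deposited intervals were 81.3 to 97.6 and 33.4 to 46.6, which do not overlap. Its log2 ratio was -1.21 (-1.29 to -1.13), a value within the range of the other 9 members. It held 23.6% of the gene's TPM in replicate 1 and 9.64% in replicate 2. The 4 transcripts with internal starts together had a TPM of 292.9 and 371.8 and a log2 ratio of 0.33 (0.292 to 0.366). Most of the gene's TPM, 76.4% in replicate 1 and 90.4% in replicate 2, was therefore assigned to internal starts.

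Among internal starts, the leading transcript Actg2-202 had a TPM of 163.5 and 213.96, and Actg2-205 had 64.4 and 100.7. The deposited intervals of each did not overlap between the libraries. Actg2-204 had 61.5 and 55.9 with overlapping intervals, and the minor Actg2-203 had 3.57 and 1.25. Internal starts were thus not uniform, with 2 transcripts higher and 2 lower in replicate 2. Counts per transcript are estimates that share most exons, so the counting intervals on them are too narrow. Of the 1258 windows of 76 bases in the upstream-start transcript, 92 occur in no other listed transcript of the gene, and for Actg2-202 this is 33 of 1198. These windows are from GENCODE M21 sequences, where Actg2-204 is shorter than as deposited.

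**Figure D3:**
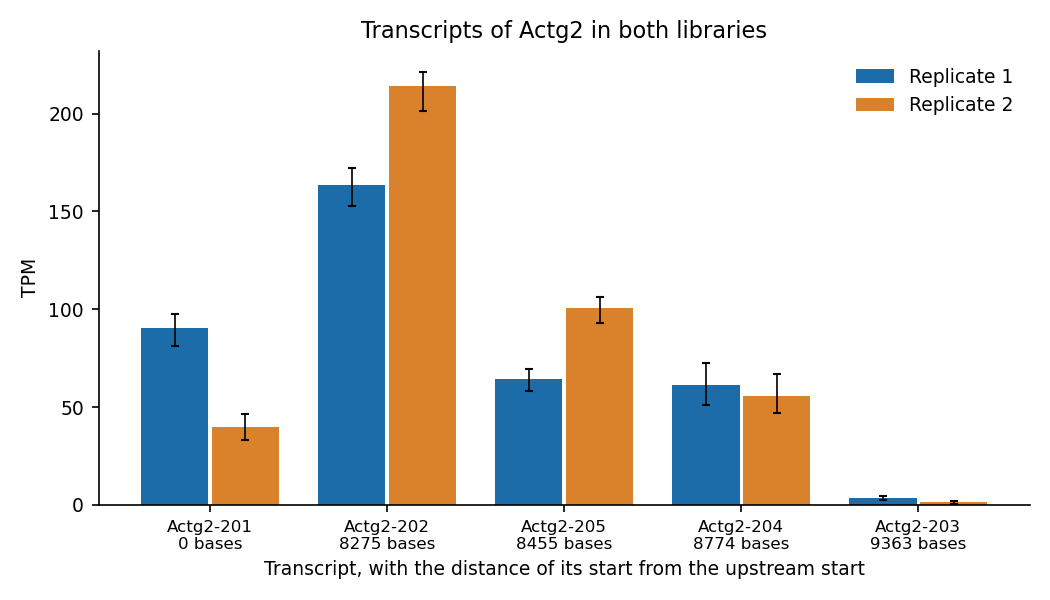
TPM of the 5 Actg2 transcripts in replicate 1 (blue) and replicate 2 (orange), with the authors' deposited intervals as bars and, under each name, how far its start lies downstream of the upstream start. The upstream-start transcript is lower in replicate 2 at 39.7 against 90.6, while Actg2-202 and Actg2-205 are higher there.

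Reads of actin genes could be misassigned if their sequences were alike over a read. The start of the coding sequence (GENCODE M21) is shown for both smooth muscle actins and for the skeletal muscle actin gene Acta1, over 90 bases, 5′ to 3′. Capitals mark bases that differ from Acta2 in an alignment of the whole coding sequence, in which Actg2 has 1128 bases and Acta2 1131.
Acta2: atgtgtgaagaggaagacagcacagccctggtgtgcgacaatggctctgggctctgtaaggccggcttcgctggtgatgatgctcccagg
Actg2: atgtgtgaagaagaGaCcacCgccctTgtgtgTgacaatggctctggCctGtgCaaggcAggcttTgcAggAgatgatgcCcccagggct
Acta1: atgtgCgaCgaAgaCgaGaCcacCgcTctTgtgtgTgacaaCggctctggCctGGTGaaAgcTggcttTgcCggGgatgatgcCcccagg
Over the whole coding sequence, Actg2 matched Acta2 at 84.2% of bases and Acta1 matched it at 85.4%, and in both the longest identical run was 29 bases. The cytoplasmic actin genes Actb and Actg1 matched Acta2 at 82.8% and 81.5% of bases. Their longest identical runs were longer, at 47 and 56 bases, and still shorter than a read of 76. No window of 76 bases in any annotated transcript of the 10 members occurred exactly in a transcript of another gene, in 1607 windows of Actg2 and 2120 of Acta2. Reads with mismatches and unannotated copies are not covered by that count.

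The actin family as a whole was led by the cytoplasmic actins. Actb had a TPM of 1258.7 ± 90.1 (SD, n = 2) and Actg1 588.1 ± 9.69 (SD, n = 2). Actg2 held 15.4% of the TPM of the 6 genes in replicate 1 and 18.04% in replicate 2, and Acta2 held 7.21% and 4.01%. The heart actin gene Actc1 was at 0.57 and 0.49, and Acta1 at 13.3 and 0.66. Acta1 was thus low in replicate 2 alone, with a log2 ratio of -4.36 (-4.90 to -3.86) from 663 and 34 counts.

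Of the genes for actin-binding proteins, Tagln encodes transgelin, a small protein that coats actin filaments and an early marker of smooth muscle. Its position is the minus strand of chromosome 9 from 45929619 to 45936058 (ENSMUSG00000032085). Tagln was at 42.3 TPM in replicate 1 and 14.8 TPM in replicate 2, from 2362 and 862 counts. Its log2 ratio was -1.53 (-1.64 to -1.42), a 2.89-fold lower level in replicate 2.

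Cnn1 encodes calponin 1, which binds actin and slows the myosin motor. It lies on the plus strand of chromosome 9 from 22099216 to 22109630 (ENSMUSG00000001349). Cnn1 was at 18.1 TPM in replicate 1 and 4.57 TPM in replicate 2, from 1579 and 416 counts. With a log2 ratio of -2.0 (-2.16 to -1.84), or 4.0-fold, it differed most of all members, and 1.49% of tested genes had a lower ratio.

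In the transgelin and calponin family, Tagln led in both libraries. Cnn1 came next in replicate 1, but in replicate 2 it was below Tagln2 and Cnn3. Tagln held 47.4% of the family's TPM in replicate 1 and 41.0% in replicate 2, and Cnn1 held 20.2% and 12.6%. Their broadly expressed relatives were lower in replicate 2 as well. Tagln2 had a TPM of 14.7 and 6.60, with a log2 ratio of -1.11, Cnn2 had 6.01 and 3.84 with -0.66, and Cnn3 had 7.69 and 6.11 with -0.35. Tagln3, better known from neurons, was at 0.52 and 0.25.

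Lmod1 encodes leiomodin 1, which starts new actin filaments in smooth muscle, and lies on the plus strand of chromosome 1 from 135324807 to 135368065 (ENSMUSG00000048096). It was at 2.57 TPM in replicate 1 and 1.45 TPM in replicate 2, from 388 and 229 counts, with a log2 ratio of -0.84 (-1.08 to -0.597). The deposited intervals on TPM were 2.3 to 2.81 and 1.26 to 1.64. The tropomodulins, which cap filaments, were all higher, with mean TPM of 28.9 ± 1.14 for Tmod2, 23.9 ± 3.51 for Tmod1, 8.30 ± 1.27 for Tmod4 and 3.73 ± 0.311 for Tmod3 (SD, n = 2 for each). Lmod1 held only 3.68% of the family's TPM in replicate 1 and 2.27% in replicate 2. The heart and skeletal muscle leiomodins were nearly absent, with Lmod2 at 0.01 and 0 and Lmod3 at 0.10 and 0.08.

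Of the genes for the myosin motor, Myh11 encodes the heavy chain of smooth muscle myosin, a specific marker of the contractile state. It lies on the minus strand of chromosome 16 from 14194535 to 14291372 (ENSMUSG00000018830). Myh11 was at 18.5 TPM in replicate 1 and 6.92 TPM in replicate 2, from 4791 and 1874 counts, with a log2 ratio of -1.43 (-1.51 to -1.35). The tables list 1 transcript, where GENCODE M21 has 4, so its splice forms were not told apart. Non-muscle myosins differed among themselves. Myh10 had a TPM of 31.7 and 38.2 with a log2 ratio of 0.23, and Myh9 had 4.10 and 3.93 with 0.00548. Myh14, the third of them, was lower in replicate 2 at 2.32 and 1.06. Myh11 therefore held 32.6% of the TPM of 4 heavy chain genes in replicate 1 and 13.8% in replicate 2.

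Mylk encodes the kinase that starts smooth muscle contraction and also has forms outside muscle. Mylk spans the plus strand of chromosome 16 from 34745210 to 35002420 (ENSMUSG00000022836). Mylk was at 20.02 TPM in replicate 1 and 14.2 TPM in replicate 2, from 5726 and 4205 counts, with a log2 ratio of -0.52 (-0.579 to -0.463), the least negative of the 9 lower members. The tables list 2 transcripts where GENCODE M21 has 8. The coding transcript, of 7824 bases, held 88.7% and 87.4% of TPM, and the retained-intron transcript Mylk-202 held 11.3% and 12.7%. Mylk took 92.6% and 89.8% of the TPM of the 4 kinase genes, with Mylk3 at 1.17 and 1.27 TPM and Mylk4 at 0.41 and 0.32. Mylk2, the skeletal muscle form, had 3 and 2 counts.

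Of the genes for anchorage, Des encodes desmin, the intermediate filament protein of all muscle. It lies on the plus strand of chromosome 1 from 75360329 to 75368579 (ENSMUSG00000026208). Des was at 8.68 TPM in replicate 1 and 3.07 TPM in replicate 2, from 904 and 318 counts, with a log2 ratio of -1.58 (-1.77 to -1.40). Its full-length transcript held 88.8% of TPM in replicate 1 and 83.4% in replicate 2. The remainder fell to 2 retained-intron transcripts with at most 21.7 counts in either library. Vim, the intermediate filament gene of mesenchymal and Sertoli cells, was higher and nearly level at a TPM of 88.8 and 82.5, and Synm, whose product joins desmin filaments, had 3.60 and 2.49. Nes and Prph, of nerve and progenitor cells, were under 0.5 TPM.

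Smtn encodes smoothelin, a protein of actin filaments in contractile smooth muscle. Its span is the minus strand of chromosome 11 from 3517523 to 3540612 (ENSMUSG00000020439). Smtn was at 6.16 TPM in replicate 1 and 3.83 TPM in replicate 2, from 611 and 436 counts, with a log2 ratio of -0.56 (-0.743 to -0.383). Its TPM was spread over many of 10 listed transcripts. Smtn-203 held 31.5% and 37.9%, Smtn-202 held 32.0% and 33.8%, and a shorter transcript of 1747 bases held 5.56% and 5.02%. The order of Smtn-202 and Smtn-203 differed between the libraries, and their deposited intervals overlapped. Smtn held 55.7% and 44.8% of its family's TPM, ahead of Smtnl1 at 2.65 and 2.92 and Smtnl2 at 2.25 and 1.80.

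Synpo2 encodes synaptopodin 2, an actin-bundling protein of muscle also called myopodin. It lies on the minus strand of chromosome 3 from 123076519 to 123236149 (ENSMUSG00000050315). Its 2.35 TPM in replicate 1 and 0.87 TPM in replicate 2 rested on 317 and 106 counts. The deposited intervals on TPM were 2.05 to 2.99 and 0.684 to 1.34, and the log2 ratio was -1.66 (-1.99 to -1.33). Synpo2-206 held 43.8% and 42.3% of TPM and a longer one of 4842 bases held 33.8% and 36.02%. Synpo2-206 rested on only 42.4 and 15.7 counts, against 148.9 and 61.3 for the longer one. The deposited TPM intervals of these transcripts overlapped in each library, so their order is not settled. The long Synpo2-202, which starts near the far end of the gene, had 89.3 counts in replicate 1 and was listed at 0 in replicate 2. Its relative Synpo, known from kidney podocytes and neurons, was higher at a TPM of 13.1 and 10.99, and Synpo2l was lower at 0.54 and 0.33.

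**Figure D4:**
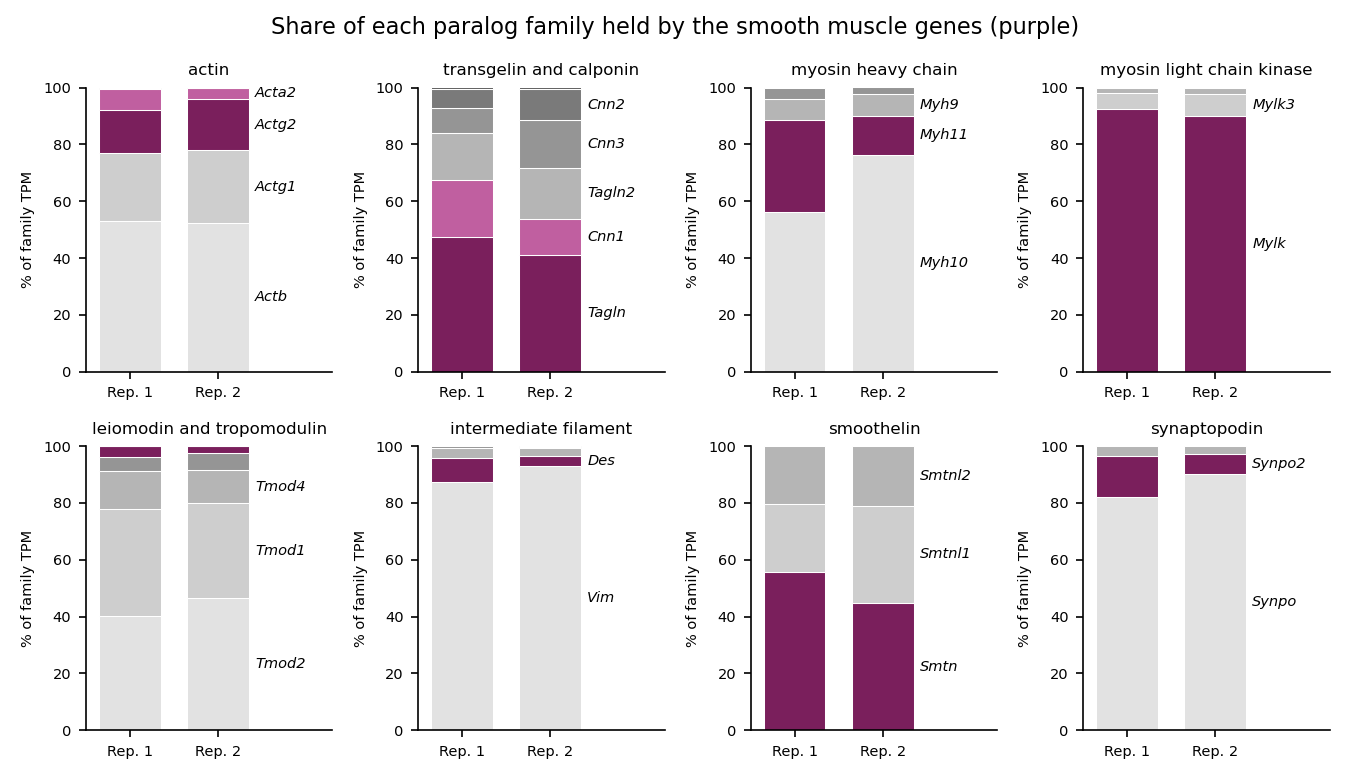
Percent of the TPM of each of 8 paralog families held by each gene, in replicate 1 and replicate 2, with the smooth muscle genes in purple shades and other genes in grey (genes with small shares are unlabelled). Each smooth muscle gene except Actg2 holds a smaller share in replicate 2, and Myh11 goes from 32.6% to 13.8% of its family.

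Across families, the smooth muscle member led in level in 3 of 8, with Tagln, Mylk and Smtn ahead of each relative. In the other 5 a broadly expressed or non-muscle relative led, namely Actb, Myh10, Tmod2, Vim and Synpo.

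Further genes of contraction were taken from fixed lists. Of 16 contractile partners, proteins that bind actin, myosin or the adhesion sites of muscle, 15 were lower in replicate 2 and 3 were over 2-fold lower. Among all tested genes 49.5% were lower and 4.08% were over 2-fold lower. The list's median log2 ratio was -0.66, against 0.00311 for all tested genes. Pgm5, a protein of adhesion sites in muscle, had 382 and 34 counts, with a log2 ratio of -3.57 (-4.12 to -3.06). Tpm2, a muscle tropomyosin, was at 20.4 TPM in replicate 1 and 5.19 TPM in replicate 2, with a log2 ratio of -1.96 (-2.14 to -1.79). The actin crosslinker Flna had 85.6 and 42.9, with -1.01 (-1.05 to -0.965). The highest, the myosin light chain genes Myl6 (TPM 192.95 and 147.1) and Myl9 (94.0 and 59.02), had smaller ratios of -0.42 and -0.66. The adhesion protein gene Vcl was the sole member of that list to be higher, at 18.5 and 19.9. Nexn, the lowest, had 17 and 11 counts.

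The list of other smooth muscle genes differed less. The median log2 ratio was -0.07. Of 16, 10 were lower in replicate 2 (49.5% of all tested genes) and 2 were over 2-fold lower (4.08% of all tested genes). These were Pdlim3, at a TPM of 10.5 and 4.76, and the potassium channel subunit gene Kcnmb1, at 0.35 and 0.17 from 56 and 28 counts. Hspb1 and Rbpms, the highest, had 50.6 and 47.2, and 30.9 and 28.8. Pln, a regulator of the calcium pump, was higher in replicate 2 at 16.5 and 21.4.

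Genes upstream of contraction went both ways between the libraries, where 49.5% of all tested genes were lower in replicate 2. Of 12 transcription regulators, 6 were lower and 6 higher, and by scaled counts 0 were over 2-fold apart. Their median log2 ratio was -0.00848, and 0.01 over those with a mean of at least 100 counts. Klf4, a repressor of the contractile genes that is also active in germ cells, led with a TPM of 137.4 and 105.4. Srf had 40.4 and 35.3, with a log2 ratio of -0.21 (-0.264 to -0.161). Myocd, the coactivator most restricted to muscle, was lowest at 0.95 and 0.38 from 70 and 54 counts, and its interval on the log2 ratio spanned 0 (-0.99 to 0.0827). By TPM Myocd was 2.5-fold apart, while its log2 ratio of scaled counts was -0.45, so its 2-fold call depends on the scale. Of 12 genes of contraction signalling, 3 were lower and 9 higher with a median of 0.09. The cyclic GMP-dependent kinase gene Prkg1 was at 55.95 and 71.4, with a log2 ratio of 0.34 (0.209 to 0.479). The phosphatase subunit gene Ppp1cb was at 6.72 and 9.87, with 0.61 (0.50 to 0.727). The calcium channel gene Cacna1c was lowest at 1.35 and 1.53. For Cacna1c the TPM and the log2 ratio of scaled counts, -0.03, point opposite ways.

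Receptors and ligands that drive contraction had a median TPM of 0.76 in replicate 1 and 0.50 in replicate 2. Of 11, 4 reached 1 TPM in each library, a share close to that of all genes (15533 of 43346). All 10 with enough counts were lower in replicate 2, against 49.5% of all tested genes. Their median log2 ratio was -0.20, and the counting intervals of 6 of the 10 spanned 0. The angiotensin receptor gene Agtr1a led at a TPM of 29.2 and 26.3, followed by the adrenergic receptor gene Adra1d at 3.80 and 3.27. The oxytocin receptor gene Oxtr had 2.17 and 2.09 and the endothelin receptor gene Ednra 2.16 and 2.02. The 6 were Adra1d, Oxtr, Ednra, Avpr1a, Edn1 and Adra1b. Over 2-fold lower were Adra1a, with 37 and 3 counts and a log2 ratio of -3.70 (-6.04 to -2.04), and the endothelin receptor gene Ednrb, with 57 and 12 counts and -2.32 (-3.36 to -1.41). Among all tested genes 4.08% were over 2-fold lower. Adra1a passed the count filter only through replicate 1, so it could only count as lower in replicate 2. The prostaglandin receptor gene Ptgfr was lowest, with 4 and 2 counts.

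Markers of other tissues that hold or border smooth muscle were compared beside the members. For each count below, the share over all tested genes was 49.5% lower in replicate 2 and 4.08% over 2-fold lower. Of 10 genes of vascular mural cells, the smooth muscle and pericytes of vessels, 7 were lower in replicate 2 and 2 over 2-fold lower, with a median log2 ratio of -0.24 and a summed TPM of 76.4 and 64.3. Ndufa4l2 and Mcam led at 57.9 and 47.5, and at 9.13 and 9.55. The pericyte gene Rgs5 was at 1.51 and 1.55 and Notch3 at 1.45 and 1.10. Kcnj8 (108 and 43 counts) and Cox4i2 (16 and 6 counts) were over 2-fold lower. Cox4i2 passed the count filter only through replicate 1, so it could only count as lower in replicate 2. Of 10 fibroblast and stroma genes 9 were lower and by scaled counts 0 over 2-fold lower, with a median of -0.42 and a summed TPM of 208.3 and 141.03. Gsn, an actin-severing protein, led at 76.5 and 42.1, Dcn of the matrix followed at 37.8 and 22.3, and Lum was lowest at 2.24 and 1.38. Endothelial genes had a median of -0.20, with 7 of 10 lower, and macrophage genes -0.16, with 6 of 10 lower. The median log2 ratios of the Sertoli, Leydig and germ cell lists were 0.33, 0.09 and 0.15.

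Epididymis genes showed the widest gap. Of 13, 7 had a mean of at least 10 counts, and 6 of these had at most 10 counts in replicate 2 and passed through replicate 1, so no count or median over them is given. Crisp1, whose product coats sperm, had 22265 counts in replicate 1 and 10 in replicate 2, and Spink8 had 3698 and 5. Wfdc15b and Adam7 had 1537 and 906 counts in replicate 1 and were listed at 0 in replicate 2. Rnase10 alone was higher there, at 2.42 and 3.23 TPM. In both libraries Lcn10, Spag11b and Ovch2 were at 0 counts, and Lcn8, Lcn9 and Cst11 had at most 2. Of 13 skeletal muscle genes, 9 had enough counts and 4 were over 2-fold lower, against 4.08% of all tested genes, with a median of -0.81. Of the 9, Myl1 and Mylpf (15 and 9 counts) passed the filter only through replicate 1. No median is given at a mean of at least 100 counts, as Acta1 and Ckm passed that filter only through replicate 1. The 4 were Acta1, Tnnc2 (100 and 16 counts), Ckm (268 and 61) and Myl1 (16 and 8). The counting interval of Myl1 spanned 0 (-2.51 to 0.233). In all, 6 of the 9 were lower, against 49.5% of all tested genes. The 3 higher were Actn3, Atp2a1 and Myh1 with log2 ratios of 0.25, 0.09 and 0.51. The lower sum came mostly from Acta1, Ckm (5.47 and 1.20 TPM) and Tnnc2 (4.97 and 0.77 TPM), while Actn3 was at 7.67 TPM in each library. Myh4, Myh2, Tnnt3 and Tnni2, further genes of skeletal muscle, had at most 6 counts in each library. The lower smooth muscle levels of replicate 2 stood beside lower summed TPM of the epididymis, skeletal muscle, stroma, vascular mural and endothelial lists. The endothelial sums were 71.6 and 55.98, and the epididymis sum rests on the genes that passed through replicate 1. Summed TPM was lower in replicate 2 for the remaining lists too, such as germ cell (28809.5 and 26308.6) and macrophage (58.03 and 55.31). Only Leydig (4691.1 and 5784.5) and Sertoli (1586.3 and 2050.4) had higher sums there. The lists were written down with earlier results of these data known, and the part of any list in the members' difference was not tested.

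**Figure D5:**
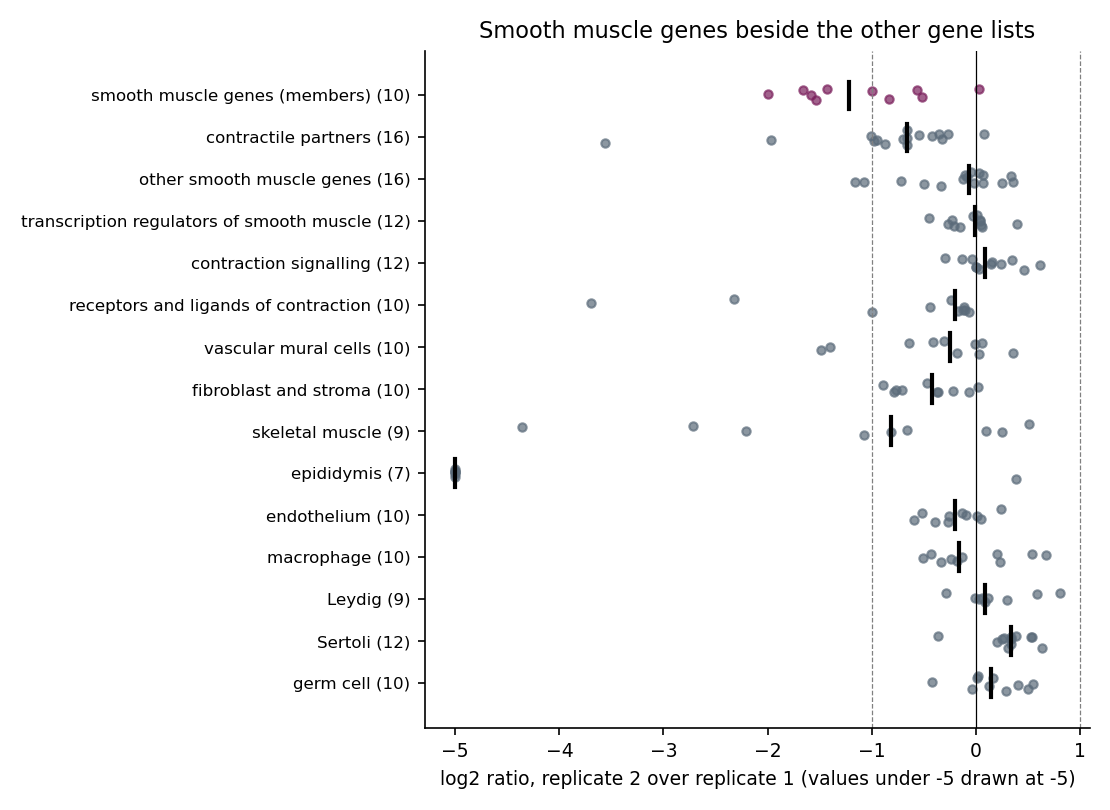
The log2 ratio of replicate 2 over replicate 1 for each gene of the 10 smooth muscle genes (purple) and of 14 other lists (grey), with the number of genes in brackets, medians as black bars and dashed lines at 2-fold. The members have a median of -1.21 and the contractile partners -0.66, while the transcription regulators centre near 0 and epididymis genes other than Rnase10 are drawn at the left edge.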

How the data were processed

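Testis RNA-seq of 1 group was analysed, in 2 libraries. The authors deposited expected counts for each gene and each transcript on mm10, with annotation M4 per the deposited readme; reads that fit several are divided by a model. The deposited TPM values, their posterior means and their interval bounds (level not stated) were made by the authors, per the file headers, as was the deposited percent that each transcript takes of its gene. Aligner and quantifier: not given in the sources used here. Deposited contigs and junctions on mm9 were not used here.

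Expected counts were rounded and scaled by TMM in edgeR 4.0.16 (R 4.3.3), over genes with a mean of at least 10 counts. DESeq2 1.42.0 size factors, library totals, TPM ratios, posterior means and other filters were alternatives. Ratios have exact 95% binomial intervals, and a count of 0 was set to 3. The ratio was tried on simulated counts that had counting error only. That checks the calculation and says nothing of the spread between these libraries. Gene lists, paralog families and the rule for naming genes (each member, each paralog, and in each list the 2 highest, the lowest and up to 4 past 2-fold) were written down with earlier results of these data known, as were the members. The rule also names 1 gene that is not reported here. Genes named beyond it were picked with their values in view. For the germ cell, Sertoli, Leydig, endothelial and macrophage lists, counts and medians stand in for named genes. The number of libraries limits precision, and an SD over 2 measures only the spread between these samples, which may be technical.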

Additional observations from a re-analysis of the deposited data

How the results depend on the processing

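Across 62 results, 263 alternative values were computed, and 247 of them moved by less than the spread between libraries, the counting interval or 1.5 times a count. Leaving out 1 of 2 libraries always moves a mean level or share by less than their SD. Those values could not count as moved, so the 247 overstate stability. No called value changed sign, but the median log2 ratio of the transcription regulators, near 0, went from -0.00848 to 0.01 at a mean of at least 100 counts. Of 50 member log2 ratios under other settings, 49 stayed within the counting interval, and Actg2 as a ratio of TPM did not (0.10). Posterior mean counts equalled the expected counts for each member, so those ratios could not move. The other scaling factors lay close to those of TMM, so mainly the TPM ratios could move. The number of members over 2-fold lower was 5 or 6 in each setting, with 6 where Acta2 crossed the line under median-of-ratios factors or where Actg2 was counted by its upstream-start transcript. Members detected fell to 5 at a TPM of at least 5. The members' median log2 ratio was -1.43 with Actg2 left out and -1.32 with Actg2 as its upstream-start transcript, both chosen after seeing the data. The share of tested genes over 2-fold lower was 7.44% with no filter, 1.38% at a mean of 100 counts and 2.11% at a mean TPM of 1. The share over 2-fold higher was 5.12%, 0.450% and 1.20% in that order, and 1.5% for protein-coding genes. With 1 middle base off, 1 member promoter held a CArG box, against 0. Counts under 100 in each library limit, among others, Myocd, Kcnmb1, Cox4i2, Adra1a, Ednrb, Myl1, Nexn and the minor transcripts of Smtn and Synpo2. In replicate 2 alone, counts under 100 limit Pgm5, Acta1, Ckm, Tnnc2 and Kcnj8.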
